A study of Mus musculus with 8 samples.

Results

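The epicardial genes *Wt1*, *Tcf21*, *Upk3b*, *Upk1b* and *Msln* and the adhesion genes *Itga4*, *Itgb1* and *Vcam1* were followed in hearts of wild-type and Tbx20EH1Mut mouse embryos. These 8 genes, of 49315 listed in the count tables, were found by symbol and Ensembl identifier, and they were chosen with earlier results of this same genotype contrast known. Their differences between genotypes are therefore given as a description, with no p-value. Bulk RNA-seq measured poly-A selected RNA from whole hearts at embryonic day 9.5 in 8 libraries, 4 from wild-type embryos and 4 from homozygous Tbx20EH1Mut embryos, each made from 3 pooled hearts. The labels give neither group another allele or a treatment. Tbx20EH1Mut embryos carry, in every cell, a pair of amino acid substitutions in the engrailed homology (EH1) domain of Tbx20, the part of this T-box transcription factor through which it binds TLE corepressors. The line was made with CRISPR, and 1 founder male with the intended change, on an otherwise wild-type Tbx20 allele, was bred to wild-type females.

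The epicardium is the mesothelial layer that covers the heart. Its cells come from the proepicardium, a cluster of cells near the venous pole that reaches the bare myocardium around this stage and spreads over it. Attachment uses the integrin α4β1, a receptor on the epicardial cell made of the subunits encoded by *Itga4* and *Itgb1*, which binds Vcam1 on the myocardial surface as well as fibronectin. Wt1 and Tcf21 are transcription factors of the proepicardium and epicardium, and Wt1 is known as an activator of *Itga4*. Upk3b and Upk1b are uroplakins, membrane proteins first described in the bladder lining, and Msln (mesothelin) is a surface protein of mesothelium.

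Between 33359322 and 49523086 counts fell on genes in the wild-type libraries and between 36250675 and 38357025 in the Tbx20EH1Mut libraries. The difference in mean total count was not separated from the spread between libraries (exact two-sided permutation test over 70 arrangements, p = 0.143, the smallest possible being 0.0286). Levels are counts relative to each library's size (CPM) with sizes scaled by the TMM method of edgeR, as mean ± SD over 4 libraries. *Tbx20* itself was counted at 353 to 379.6 CPM in wild-type and at 215 to 317 CPM in Tbx20EH1Mut libraries. Its log2 fold change was −0.46 ± 0.13 (SE, edgeR quasi-likelihood test, adjusted p = 0.0273), a call that was lost when wild-type replicate 3 or 4 or mutant replicate 1 or 2 was left out, with upper-quartile scaling (−0.38, adjusted p = 0.0608) and with the level of foregut markers as a covariate (−0.29). The substituted codons cannot be seen in a gene count. Of the fixed epicardial markers *Wt1*, *Tcf21*, *Upk3b*, *Upk1b*, *Tbx18* and *Bnc1* were counted in every library, whereas *Msln* was at or near 0. All 6 cardiomyocyte markers were abundant in every library, with a summed level of 20660 to 35130 CPM.

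Sequence at the start of transcription is shown for the receptor's 2 subunits, because the α subunit differed widely between genotypes and the β subunit did not. The RefSeq promoter table (GRCm38.p6), which covers 250 bases before to 50 bases after a gene's start, holds 4 of the 8 genes, *Itga4*, *Itgb1*, *Tcf21* and *Upk3b*. The *Itga4* window is chr2:79255176-79255475 on the plus strand, and the *Itgb1* window is chr8:128685404-128685703 on the plus strand. A short motif for T-box factors and another for Wt1 were searched on both strands. Capitals mark a T-box core (GGTGTGA, or TCACACC on the other strand) or a Wt1 core (GCGTGGG, or CCCACGC on the other strand), and the matches do not overlap.
Itga4: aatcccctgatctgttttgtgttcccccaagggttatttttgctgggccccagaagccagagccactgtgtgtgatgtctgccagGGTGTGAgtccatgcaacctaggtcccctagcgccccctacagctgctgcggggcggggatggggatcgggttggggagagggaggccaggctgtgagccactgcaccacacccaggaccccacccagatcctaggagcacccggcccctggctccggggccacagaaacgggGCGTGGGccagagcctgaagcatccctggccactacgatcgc
Itgb1: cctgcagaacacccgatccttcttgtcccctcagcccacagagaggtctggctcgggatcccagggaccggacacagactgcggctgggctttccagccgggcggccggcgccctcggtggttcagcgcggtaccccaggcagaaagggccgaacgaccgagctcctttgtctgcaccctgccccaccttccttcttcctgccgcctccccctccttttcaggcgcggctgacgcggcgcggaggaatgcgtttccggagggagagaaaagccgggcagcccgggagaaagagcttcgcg
The *Itga4* window held 1 T-box core, which began at base 86, and 1 Wt1 core, which began at base 259. Neither motif occurred in the *Itgb1*, *Tcf21* or *Upk3b* windows. Of 32851 promoters in the table, 3.98% held the T-box core and 5.04% held the Wt1 core on either strand. A match describes letters in a window, and its absence says only that these letters were not in this window.

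*Itga4* (ENSMUSG00000027009, chromosome 2 from 79255426 to 79333123 of GRCm38) was the gene with the widest difference among the 7 genes that passed the filter on low counts. It was counted at 31.8, 8.47, 10.1 and 15.6 CPM in the wild-type libraries, in the order of replicates 1 to 4, and at 2.46, 4.43, 1.78 and 2.31 CPM in the Tbx20EH1Mut libraries. Every mutant library lay below every wild-type library, although wild-type replicate 1 stood far above the other wild-type libraries. The mean was 16.5 ± 10.6 CPM in wild-type and 2.75 ± 1.16 CPM in Tbx20EH1Mut hearts, a 6.0-fold difference in means. The log2 fold change was −2.58 ± 0.45 (SE), and it was −2.05 without wild-type replicate 1. In a bulk sample, fewer cells of a type and less RNA per cell cannot be told apart. The exons of *Itga4* share 1124 bases (8.04%) with *Cerkl* on the other strand, to which only 13 counts were assigned in all libraries, against 3089 for *Itga4*.

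*Itgb1* (ENSMUSG00000025809, chromosome 8 from 128685654 to 128733200), which encodes the β1 subunit shared by many integrins, did not differ in the same way. Its wild-type libraries had 494, 592, 607 and 563 CPM and its mutant libraries 469, 537, 486 and 532 CPM. The ranges overlapped, and the log2 fold change was −0.16 with a 95% interval of −0.41 to 0.09. The ratio of *Itga4* to *Itgb1* counts within a library was 0.0143 to 0.0643 in wild-type and 0.00367 to 0.00825 in Tbx20EH1Mut hearts, so that these ranges did not overlap.

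*Vcam1* (ENSMUSG00000027962, chromosome 3 from 116109949 to 116129688, minus strand), the ligand on the myocardial side, was lower in every mutant library. It had 122, 134, 155 and 157 CPM in the wild-type libraries and 38.2, 49.9, 45.0 and 53.9 CPM in the Tbx20EH1Mut libraries, in the same order. The libraries of a genotype lay close together and the genotypes were far apart, with means of 142 ± 16.9 and 46.7 ± 6.80 CPM and a 3.04-fold difference. The log2 fold change was −1.60 ± 0.14 (SE). In contrast to *Itga4*, *Vcam1* was not high in wild-type replicate 1, which had the lowest of the wild-type levels. The exons of *Vcam1* share 61 bases with the predicted gene *Gm43109*, which had 23 counts against 32406 for *Vcam1*.

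*Wt1* (ENSMUSG00000016458, chromosome 2 from 105126529 to 105173616), a zinc finger factor, was higher in every mutant library. Wild-type replicates 1 to 4 had 36.8, 17.3, 23.5 and 24.5 CPM, and Tbx20EH1Mut replicates 1 to 4 had 56.9, 86.8, 86.2 and 76.8 CPM. The lowest mutant library was thus above the highest wild-type library. Means were 25.5 ± 8.16 and 76.7 ± 14.0 CPM, a 3.0-fold difference, with a log2 fold change of 1.59 ± 0.22 (SE). *Wt1* and *Itga4* therefore differed in opposite directions, and the ratio of *Itga4* to *Wt1* counts was 0.428 to 0.863 in wild-type and 0.0207 to 0.0511 in Tbx20EH1Mut libraries.

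The other epicardial genes did not separate the genotypes. *Tcf21* (ENSMUSG00000045680, chromosome 10), a basic helix-loop-helix factor, had 26.3, 7.35, 9.16 and 10.8 CPM in wild-type and 18.3, 12.4, 7.35 and 10.4 CPM in Tbx20EH1Mut replicates 1 to 4. Its log2 fold change was −0.14 with a 95% interval of −1.04 to 0.75. *Upk3b* (ENSMUSG00000042985, chromosome 5) had 27.0, 7.17, 10.3 and 13.1 CPM in wild-type and 19.9, 18.2, 8.0 and 9.06 CPM in mutant replicates, and its log2 fold change was −0.06 (interval −0.99 to 0.88). The mutant libraries of *Upk3b* lay within the wild-type range, and those of *Tcf21* did so except for replicate 3, which was just below it. *Upk1b* (ENSMUSG00000049436, chromosome 16) had 22.3, 5.72, 4.98 and 9.64 CPM in wild-type and 5.96, 7.67, 8.60 and 6.04 CPM in mutant replicates, a log2 fold change of −0.59 with an interval of −1.53 to 0.36. Intervals this wide do not show equal levels.

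*Msln* (ENSMUSG00000063011, chromosome 17) did not pass the filter. It had 7, 2, 0 and 0 counts in wild-type replicates 1 to 4 and 1, 0, 0 and 0 counts in Tbx20EH1Mut replicates 1 to 4. A library with 0 counts allows a level of up to 3 counts, which is 0.0606 to 0.0828 CPM of the total counts of these libraries, for counting error only. No difference was detectable at this depth.

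Of the 7 genes tested, 3 passed an adjusted p of 0.05 in the model fitted over all genes, where 29.3% of 17163 genes did so. *Wt1* was called higher, as were 14.0% of all genes tested, and *Itga4* and *Vcam1* were called lower, as were 15.3%. The genotypes did not overlap for the same 3 genes, and did not overlap for 30.5% of all genes tested. Because the genes were chosen with this contrast known, nothing is read from these counts. The median log2 fold change was −0.16 over the 7 genes and 0.005 over all genes tested.

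**Figure D1:**
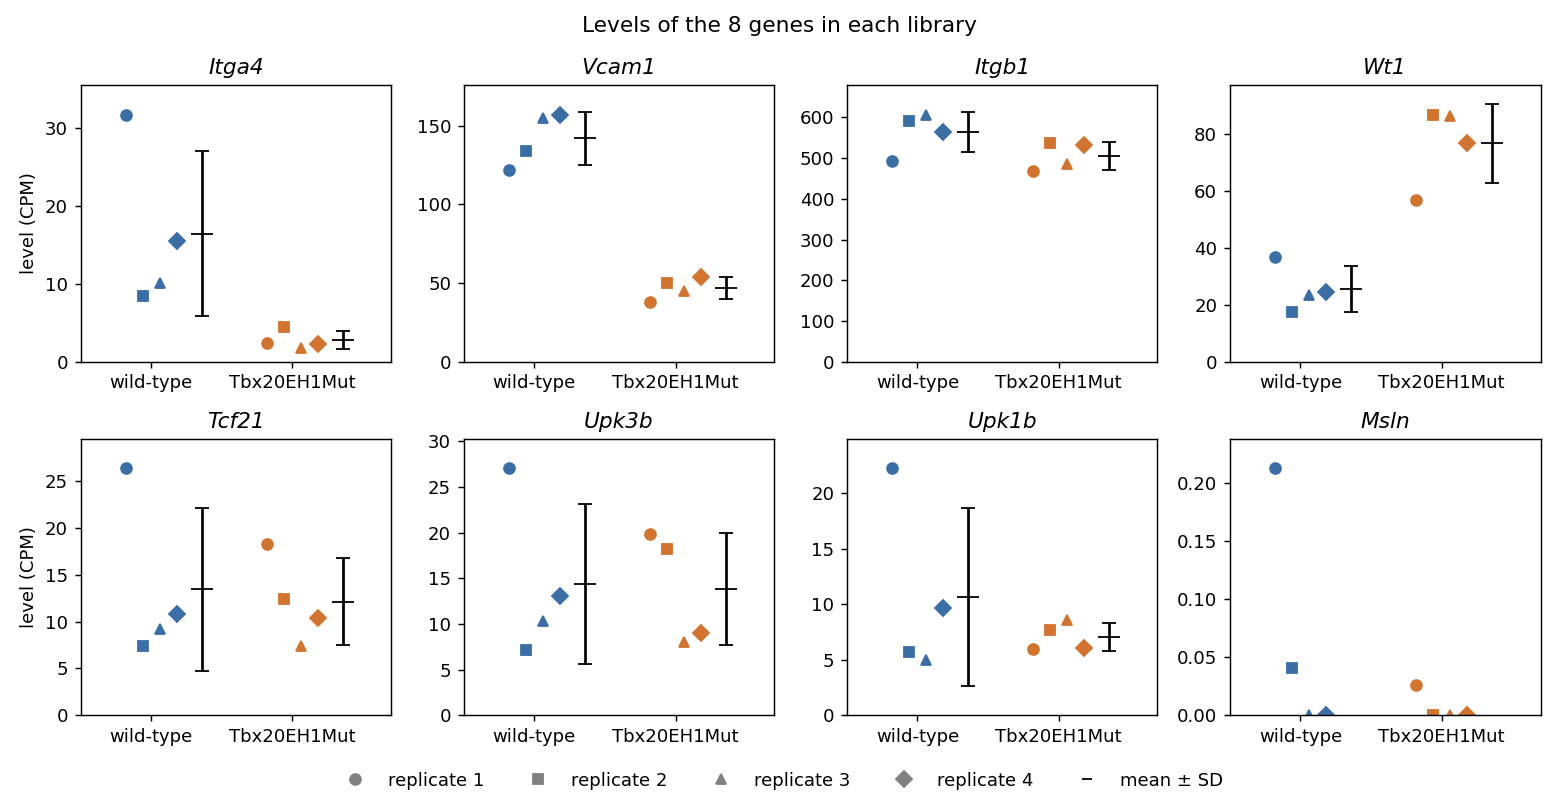
Levels (CPM, linear axes from 0) of the 8 genes in 4 wild-type and 4 Tbx20EH1Mut libraries, 1 symbol per replicate, with mean ± SD over 4 libraries except for *Msln*. The genotypes do not overlap for *Itga4*, *Vcam1* and *Wt1*, and wild-type replicate 1 has the highest wild-type level of *Itga4*, *Wt1*, *Tcf21*, *Upk3b*, *Upk1b* and *Msln*.

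Wild-type replicate 1 stood apart in some epicardial genes, though not in all of those listed. Its level was 2.79 times the mean of the other wild-type libraries for *Itga4*, 2.89 times for *Tcf21*, 2.66 times for *Upk3b*, 3.28 times for *Upk1b* and 1.69 times for *Wt1*. For *Tbx18*, a T-box factor of the proepicardium, it was 2.89 times. In contrast, it was 0.821 times for *Vcam1* and 0.841 times for *Itgb1*. Among other epicardial and mesothelial genes it was 5.04 times for *Aldh1a1* and 1.825 times for *Bnc1*. *Aldh1a2*, however, was higher in wild-type replicate 2 (4.52 against 3.55 CPM). *Lrrn4* had 10.5 CPM in wild-type replicate 1, 9.45 CPM in replicate 2, and 5.82 and 5.41 CPM in replicates 3 and 4. *Pdpn* (17.8 against 15.1 to 16.8 CPM) was little above the other wild-type libraries in wild-type replicate 1. Some genes of other lists were also highest in this library, among them *Tmsb4x* (1052 against 362 to 563 CPM in the other wild-type libraries) and the cardiomyocyte gene *Tnnc1* (2442 against 1007 to 1649 CPM), both picked for this comparison after their values were seen. Without this replicate the log2 fold changes were 0.41 for *Tcf21*, 0.43 for *Upk3b* and 0.05 for *Upk1b*, none of them called, while *Wt1* was at 1.81 and *Vcam1* at −1.67.

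The level of *Itga4* was then set against those of other epicardial genes of the same library. The ratio of *Itga4* to *Upk3b* counts in wild-type replicates 1 to 4 was 1.18, 1.18, 0.981 and 1.19, and in Tbx20EH1Mut replicates 1 to 4 it was 0.124, 0.243, 0.223 and 0.254. Such ratios do not depend on how libraries are scaled, and they were chosen after the levels had been seen. The mean ratio was 1.13 ± 0.101 in wild-type and 0.211 ± 0.0596 in mutant hearts, a 5.36-fold difference. The SD among wild-type libraries was 8.93% of the mean ratio to *Upk3b*, 12.2% for *Tcf21*, 16.5% for *Upk1b*, 19.0% for *Tbx18* and 32.0% for *Wt1*. Among Tbx20EH1Mut libraries the SD was wider, at 28%, 38%, 38%, 30% and 37% of the mean ratio, in the same order. Against *Tcf21* counts, *Itga4* had a mean ratio of 1.23 ± 0.150 in wild-type and 0.239 ± 0.0914 in mutant hearts. Against *Tbx18* it was 0.530 ± 0.101 and 0.116 ± 0.0347. *Itga4* was thus lower in mutant hearts per count of each of these epicardial genes, with no overlap between genotypes.

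*Wt1* went the other way by the same measure. The ratio of *Wt1* to *Tcf21* counts was 1.40, 2.35, 2.57 and 2.26 in wild-type and 3.11, 6.99, 11.7 and 7.41 in Tbx20EH1Mut replicates 1 to 4. Every mutant library was above the wild-type range, with a 3.41-fold difference in means. *Upk3b* to *Tcf21* counts, in contrast, stood at 1.08 ± 0.104 in wild-type and 1.13 ± 0.246 in mutant hearts, and these ranges overlapped. The ratio of *Upk1b* to *Tcf21* also overlapped, at 0.765 ± 0.155 and 0.674 ± 0.355.

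**Figure D2:**
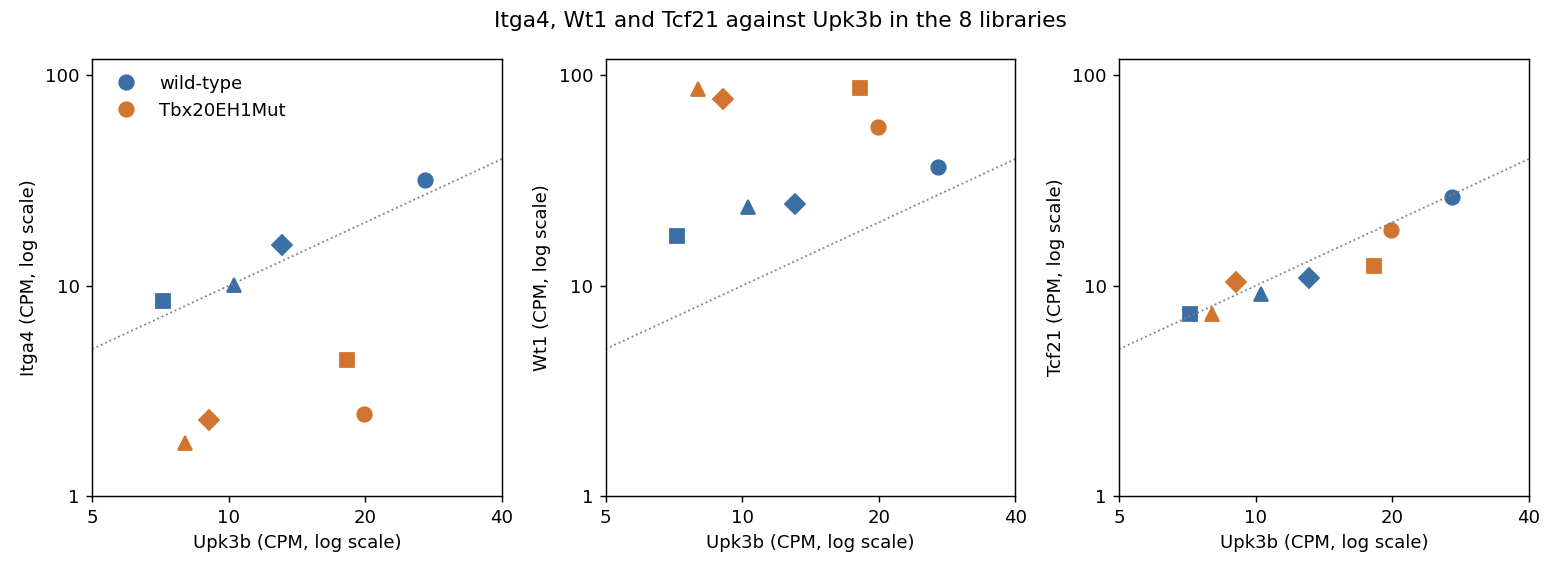
Levels of *Itga4*, *Wt1* and *Tcf21* against that of *Upk3b* (CPM, log axes) in 8 libraries, with symbols for replicates 1 to 4 as circle, square, triangle and diamond and a dotted line at equal values. The wild-type *Itga4* points follow the line (ratios 0.981 to 1.19) and the mutant points lie below it (0.124 to 0.254), mutant *Wt1* points lie above the wild-type points, and *Tcf21* points of both genotypes follow the line.

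Levels of different genes were compared per length of exon, as TPM (counts per exon length, scaled to the same sum in every library). In wild-type hearts the order of mean TPM was *Itgb1* (358 ± 75.6), *Vcam1* (41.2 ± 7.37), *Tcf21* (26.8 ± 14.1), *Upk1b* (14.7 ± 9.28), *Wt1* (10.3 ± 2.0), *Upk3b* (9.94 ± 4.86), *Itga4* (2.87 ± 1.52) and *Msln* (0.0707 ± 0.105). Ranges over libraries overlapped between each pair of neighbours from *Vcam1* down to *Upk3b* and were apart for the other pairs. In Tbx20EH1Mut hearts *Wt1* came second, at 26.6 ± 4.68 TPM, and *Vcam1* stood at 11.4 ± 2.01 TPM, after *Tcf21* (22.0 ± 10.2). Ranges overlapped between neighbours from *Wt1* down to *Upk1b*. *Itga4*, at 0.436 ± 0.218 TPM, was below *Upk3b* (8.75 ± 4.58) and *Upk1b* (8.58 ± 1.25) in every mutant library. The receptor's α subunit message was thus far less abundant per length than its β subunit message in both genotypes.

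Genes with the most similar pattern over the 8 libraries were sought by the mean absolute difference between log2(CPM + 0.5) values, each centred on the gene's own mean, among 12483 genes. For *Itga4* these were *Postn* (0.26) and *Eef1a2* (0.31), where the median over all candidates was 1.11. For *Vcam1* they were *Tfcp2l1* (0.10) and *Angpt1* (0.12), and for *Itgb1* *Top2b* (0.02) and *Usp25* (0.03). For *Wt1* they were *Rsph9* (0.12) and *Cebpb* (0.13). The nearest to *Tcf21* were *Cthrc1* and *Upk3b* (both 0.14), and the nearest to *Upk3b* were *Tcf21* (0.14) and *Bnc1* (0.22). For *Upk1b* they were *Emp1* (0.21) and *Anxa1* (0.23). *Tcf21* and *Upk3b* were thus in each other's pair.

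The gene lists from here on were also chosen with earlier results of this contrast known. Their calls and adjusted p-values are given as a description, and nothing is read from counts of calls. Over all genes tested, 14.0% were called higher and 15.3% lower. Of 14 other epicardial and mesothelial genes, 12 were tested, 2 were called higher and 1 lower in Tbx20EH1Mut hearts, and the median log2 fold change was 0.01. *Krt19*, a keratin of simple epithelia, rose from 80.6 to 118 CPM in wild-type to 295 to 325 CPM in mutant libraries, a log2 fold change of 1.74 ± 0.14 (SE, adjusted p = 6e-05), and it was 1.87 with the foregut covariate. *Aldh1a2*, the main retinoic acid-synthesising enzyme of the early embryo, rose by 1.35 ± 0.46 (adjusted p = 0.0498), but its libraries overlapped and mutant replicate 1, at 16.2 CPM, was far above the other mutant libraries (3.81 to 5.74 CPM). Without that replicate the log2 fold change was 0.71, with the foregut covariate it was 0.04, and *Aldh1a2* was called in only 2 of 8 fits without 1 library (those without wild-type replicate 2 or mutant replicate 3). Scaling by library size alone also ended its call (1.32, adjusted p = 0.0678). *Aldh1a1*, another enzyme of this family, fell by 2.96 ± 0.85 on the log2 scale (adjusted p = 0.0265). It had 9.65 CPM in wild-type replicate 1 and 0.794 to 3.60 CPM in the other wild-type libraries, and without that replicate the value was −1.97 (adjusted p = 0.0511). It was called in 3 of 8 fits without 1 library (those without wild-type replicate 2 or 3 or mutant replicate 2) and not with the foregut covariate (−1.86). *Tbx18* had 61.3 CPM in wild-type replicate 1, 16.5 to 23.8 CPM in the other wild-type libraries and 16.0 to 34.5 CPM in mutant libraries, and was not called (−0.38 ± 0.39, adjusted p = 0.48). Its value was 0.17 without wild-type replicate 1 and 0.42 with the foregut covariate, not called in either. *Pdpn*, a mesothelial and lymphatic glycoprotein, was at −0.15 ± 0.12 (adjusted p = 0.34), and *Lrrn4*, a mesothelial membrane protein, at −0.90 ± 0.32 (adjusted p = 0.0546). *Lrrn4* was called lower in 4 of 8 alternatives on all libraries, among them the foregut covariate (−1.61, adjusted p = 0.0152). Of 4 other uroplakin genes, *Upk1a* alone was tested and was at −0.41 ± 0.63 (edgeR, adjusted p = 0.651). It had no unadjusted p under 0.05, and DESeq2 called 1 of the 4, *Upk3bl*, which was named after its values were seen.

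Among 7 other ligands of α4 integrins and relatives of *Vcam1*, 6 were tested, 1 was called higher and 1 lower, and the median was −0.29. *Alcam*, an immunoglobulin-family adhesion molecule of the myocardium, fell from 148 to 158 CPM in wild-type to 70.6 to 91.3 CPM in mutant libraries (log2 fold change −0.89 ± 0.11, adjusted p = 0.000545). *Icam2*, which is found on endothelium, rose by 0.66 ± 0.14 (adjusted p = 0.00839). *Fn1*, which encodes fibronectin, the other main ligand of α4β1, was at −0.71 ± 0.26 (adjusted p = 0.0628), with 1169 CPM in wild-type replicate 2 against 507 to 629 CPM in the other wild-type libraries and 353 to 536 CPM in the mutant libraries. It was at −0.35 without wild-type replicate 2. It was called lower without wild-type replicate 1, with DESeq2, without a filter and with the foregut covariate (−1.53, adjusted p = 0.000239). *Emilin1* (−0.05 ± 0.19) and *Icam1* (−0.32 ± 0.55) were not called (adjusted p = 0.867 and 0.687). With the foregut covariate they were at −0.55 (adjusted p = 0.0606) and −1.85 (adjusted p = 0.119), still not called. *Icam1* was at 0.04 without mutant replicate 3.

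Of 19 other integrin subunits, 17 were tested, none was called higher and 3 were called lower, with a median of 0.00. *Itga6*, a laminin receptor subunit, fell by 0.74 ± 0.15 on the log2 scale (adjusted p = 0.00514) and *Itga5*, the fibronectin receptor subunit, by 0.44 ± 0.13 (adjusted p = 0.0266), the latter called in 2 of 8 fits without 1 library (those without wild-type replicate 1 or 2). The third was *Itgae*, at under 2 CPM in every library, which was named after its values were seen (−1.30 ± 0.34, adjusted p = 0.0186). *Itgae* was not called with a replicate block, without wild-type replicate 3 or without mutant replicate 4, where *Itga6* was the only subunit called lower. *Itga9*, the closest relative of *Itga4* and another subunit that binds Vcam1, had 36.4 to 68.9 CPM in wild-type and 59.2 to 89.5 CPM in mutant libraries. Its log2 fold change was 0.54 ± 0.20, and it was not called (adjusted p = 0.0618). *Itgav* (0.41 ± 0.15, adjusted p = 0.0673) and *Itgb3* (0.29 ± 0.17, adjusted p = 0.232) were not called either. Upper-quartile scaling called 2 of the 17 genes higher, *Itgav* and *Itga9*, and 3 lower. With the foregut covariate *Itgav* was at 0.65 and called higher and *Itga9* was at 0.09, and DESeq2 called *Itga9* higher. Without wild-type replicate 2, *Itga9* (0.73) and *Itgb3* (0.50, adjusted p = 0.0159) were called higher, and *Itgav* was called higher without wild-type replicate 1 (0.48) or mutant replicate 2 (0.50).

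Integrin adaptors link the receptor's tails to actin, and all 13 were tested, with 1 called higher, 3 lower and a median of −0.05. With the foregut covariate 6 were called lower and 0 higher. Over all 17163 genes that fit called 3493 lower and 3243 higher, against 2618 and 2406 in the main fit. *Tln2*, a talin, fell from 37.8 to 105 CPM to 15.3 to 25.0 CPM (log2 fold change −1.65 ± 0.30, adjusted p = 0.00391), and it was at −2.59 with the foregut covariate. *Parvb* fell by 0.45 ± 0.11 on the log2 scale (adjusted p = 0.0155), and it was not called without mutant replicate 4 (adjusted p = 0.0578). *Vcl*, which encodes vinculin, fell by 2.40 ± 0.71 (adjusted p = 0.0307), but its libraries overlapped, with 8.56 CPM in wild-type replicate 1 against 52.5 to 119.7 CPM in the other wild-type libraries and 4.13 to 23.2 CPM in mutant libraries. It was called in 2 of 8 fits without 1 library (those without wild-type replicate 1 or mutant replicate 2). Its value was −1.78 without wild-type replicate 2, −3.04 without mutant replicate 2 and −4.14 with the foregut covariate. *Lims2*, of the PINCH family, rose by 1.77 ± 0.39 (adjusted p = 0.00924). With the level of the foregut markers as a covariate it was at 0.74 and not called. The more abundant *Tln1* (−0.14 ± 0.15, adjusted p = 0.511), *Fermt2* (0.10 ± 0.12, adjusted p = 0.562) and *Parva* (0.03 ± 0.13, adjusted p = 0.87) were not called.

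Of 9 regulators of the formation and attachment of the proepicardium, 6 were called lower and 1 higher, with a median of −0.46. Over all genes tested, 15.3% were called lower and 14.0% higher. This list was chosen with the contrast known, so nothing is read from its count. *Bmp2*, a signal of the atrioventricular myocardium, fell from 52.1 to 69.0 CPM to 18.0 to 33.8 CPM (log2 fold change −1.26 ± 0.18, adjusted p = 0.00132), and *Bmp4* rose from 47.7 to 57.2 CPM to 92.6 to 120.5 CPM (1.03 ± 0.12, adjusted p = 0.000378). *Tbx5* fell by 0.80 ± 0.11 on the log2 scale (adjusted p = 0.000992), the adhesion protein gene *Bves* by 0.66 ± 0.13 (adjusted p = 0.00575) and *Gata4*, a factor needed for the proepicardium, by 0.49 ± 0.15 (adjusted p = 0.0319). *Bves* was at −0.32 and not called with the foregut covariate, and *Gata4* was called in 2 of 8 fits without 1 library (those without wild-type replicate 1 or mutant replicate 2). Upper-quartile scaling also ended the call for *Gata4* (−0.40, adjusted p = 0.0559). *Tmsb4x* (0.87 ± 0.33, adjusted p = 0.0691) and *Pard3* (0.33 ± 0.17, adjusted p = 0.162) were not called. *Tmsb4x* was called higher with DESeq2, without a filter, without wild-type replicate 1 (1.23) and with the foregut covariate (1.92, adjusted p = 0.00136), and *Pard3* without wild-type replicate 2 (0.52, adjusted p = 0.012). With upper-quartile scaling 3 were called lower and 1 higher.

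**Figure D3:**
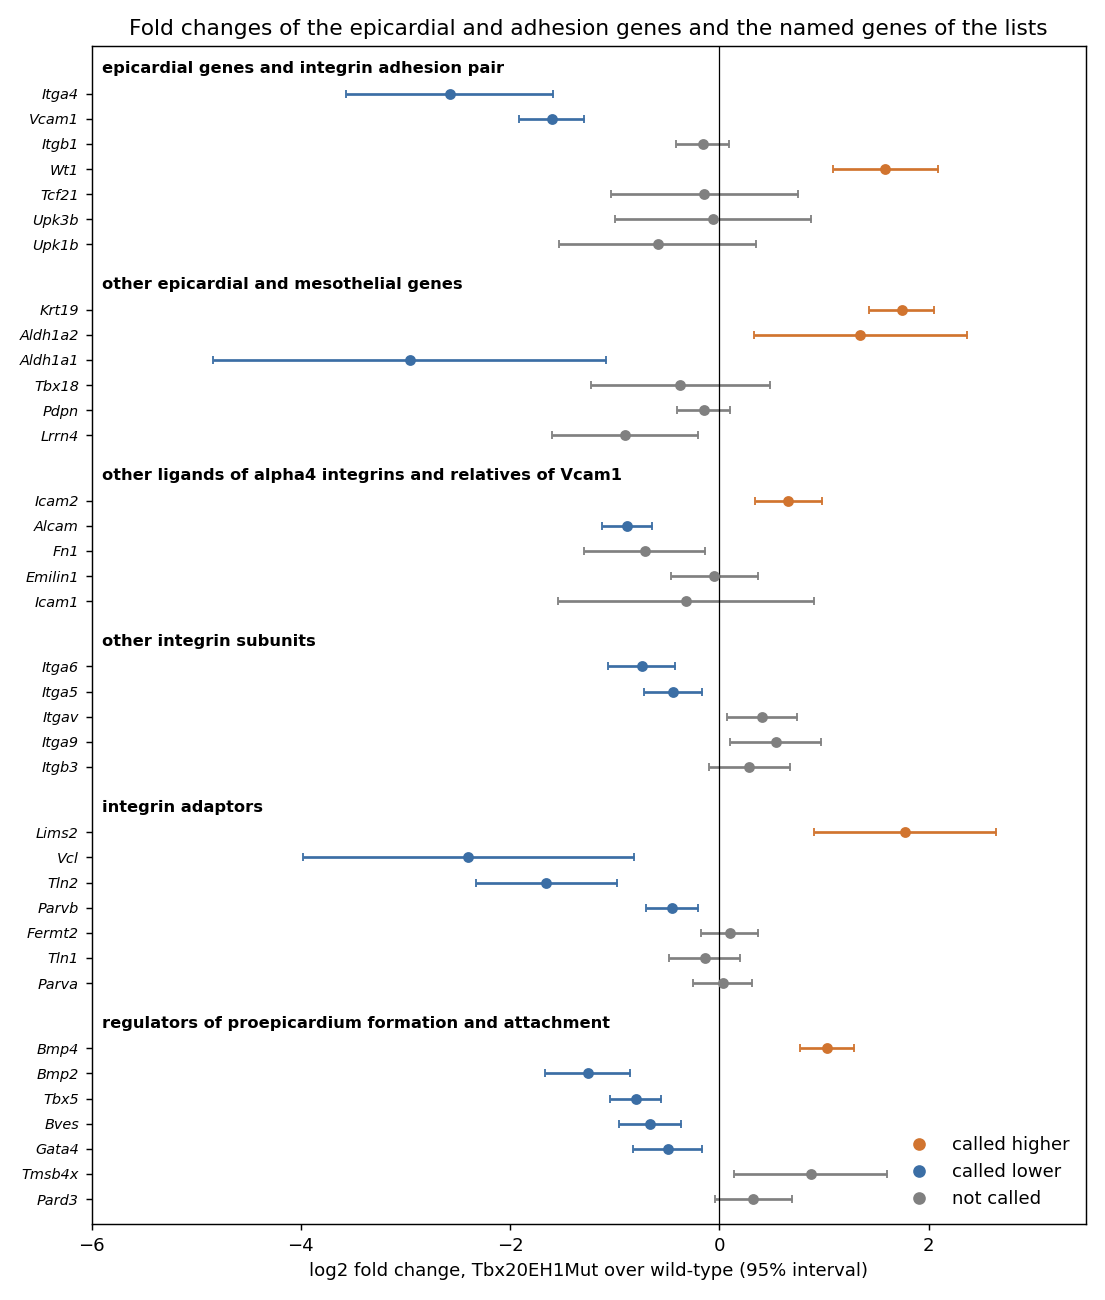
Log2 fold changes (Tbx20EH1Mut over wild-type) of the 7 tested genes and of the named genes of 5 lists, as points with 95% intervals from the edgeR quasi-likelihood fit on 4 and 4 libraries. Orange marks genes called higher, blue genes called lower and grey genes not called, and the intervals of *Tcf21*, *Upk3b* and *Upk1b* are wide and include 0, whereas those of *Itga4*, *Vcam1* and *Wt1* do not.

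Markers of other cell types also differed between libraries, and their part in the results above was not tested beyond the values given here. The summed level of 6 foregut epithelium markers was 1.02 to 52.8 CPM in wild-type and 28.9 to 184 CPM in mutant libraries (exact permutation test, p = 0.0571, adjusted over 6 marker lists 0.114), and 3 of the 6 were called higher. The foregut covariate was the mean of these markers' log2 levels, not their sum. With it, the log2 fold change was −2.18 for *Itga4*, −1.49 for *Vcam1* and 2.17 for *Wt1*, all still called. *Upk1b* turned from −0.59 to 0.19, not called in either case. The foregut level went largely with genotype. Outside wild-type replicate 2, wild-type sums were 1.02 to 6.37 CPM, all below the lowest mutant library. The covariate fit therefore cannot fully separate genotype from foregut level. The 5 hepatic endoderm markers summed to 1.14 to 9.04 CPM in wild-type and 3.34 to 146 CPM in mutant libraries (p = 0.286, exact permutation test, adjusted 0.429), with 2 of 5 called higher. Mutant replicate 2 had the 146 CPM, against 3.34 to 31.9 CPM in the other mutant libraries. Without that replicate the difference in means was 8.46 CPM instead of 41.5 CPM. Among 6 endothelial markers 4 were called higher and none lower, and their sum was 404 to 521 CPM in wild-type and 529.9 to 605 CPM in mutant libraries (p = 0.0286, exact permutation test, adjusted 0.0857). The 5 pharyngeal mesoderm markers summed to 45.5 to 55.2 CPM and 66.7 to 85.5 CPM (p = 0.0286, exact permutation test, adjusted 0.0857), with *Myf5* under 10 counts in every library and 1 of the 3 tested genes called higher. The summed levels of the cardiomyocyte markers and of the 6 haematopoietic markers, at 18.0 to 22.7 CPM in wild-type and 18.6 to 22.1 CPM in mutant libraries, overlapped (exact permutation test, both p = 0.83). Most of the haematopoietic sum was *Itga2b*, at means of 15.6 CPM in wild-type and 15.2 CPM in mutant hearts. Named after their values were seen, *Csf1r* was higher and *Spi1* lower in every mutant library (edgeR, adjusted p = 0.0501 and 0.148). None of the 6 cardiomyocyte and 5 tested haematopoietic genes was called by edgeR, 1 of each had an unadjusted p under 0.05, DESeq2 called 1 of each, and *Ptprc*, the pan-leukocyte marker, was under 10 counts in every library.

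**Figure D4:**
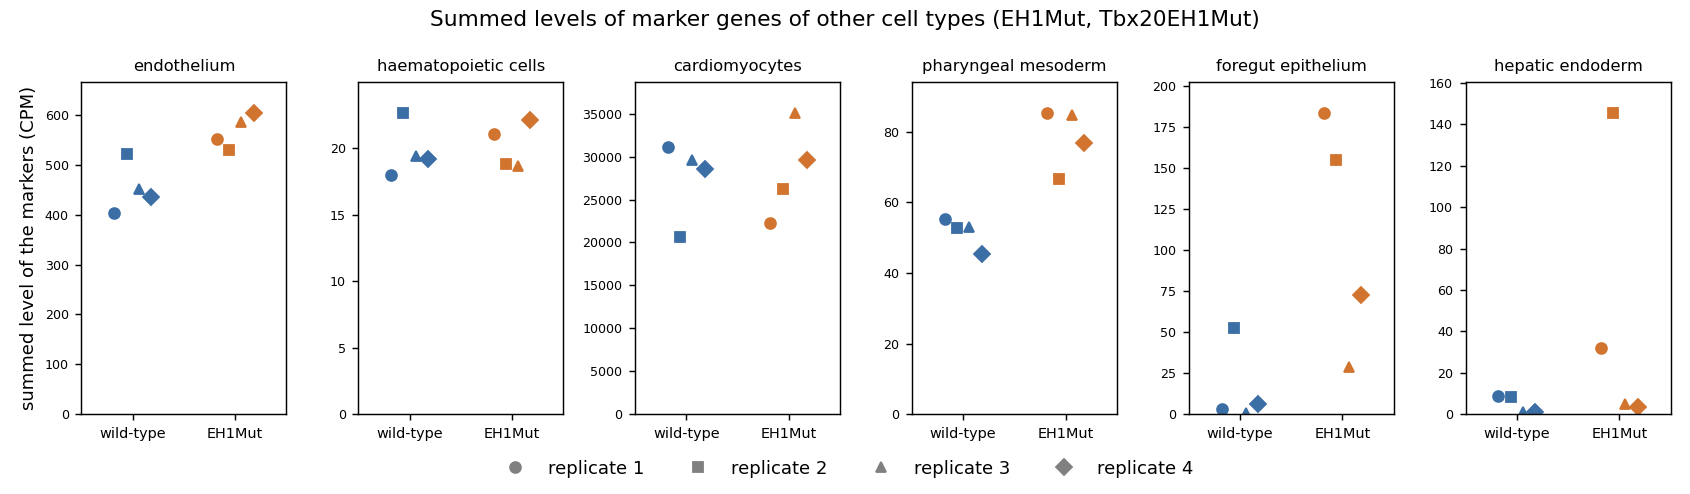
Summed levels (CPM, axes from 0) of the marker genes of 6 other cell types in 4 wild-type and 4 Tbx20EH1Mut libraries, 1 symbol per replicate. Foregut markers are highest in mutant replicates 1 and 2 (184 and 155 CPM), and among wild-type libraries in replicate 2 (52.8 CPM), and cardiomyocyte markers overlap between genotypes.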

How the data were processed

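Per the labels, poly-A selected RNA of E9.5 hearts was sequenced, and the authors deposited 1 table of raw counts per library, whole numbers per Ensembl gene and not normalized, with the exon coordinates and length of each gene. The submitters' processing notes name Trimmomatic 0.36, STAR 2.5.2b and GRCm38 (mm10). The counting tool and its strand setting are not given in the sources used here, so reads of overlapping genes are uncertain. The 8 genes and the gene lists were chosen with earlier results of these data known. Counts were fitted in R 4.3.3 with edgeR 4.0.16 (filterByExpr, TMM, glmQLFit and glmQLFTest, genotype as the only term) over 17163 genes, with Benjamini-Hochberg adjustment and a call at an adjusted p of at most 0.05. The steps were tested on simulated counts drawn independently for each gene and library, a check of the steps and not of these results. TPM used the deposited exon length. Lists were described by counts of calls and medians. The text names the 8 genes, *Tbx20*, genes overlapping them, and, per list and among genes averaging at least 1 CPM, up to 4 genes called higher and 4 lower by size and up to 3 uncalled genes by level, and per gene the 2 nearest profiles. Alternatives were RLE, upper-quartile and library-size scaling, DESeq2 1.42.0, other filters, a replicate block, a foregut covariate and leaving out each library. Nothing in the labels says which hearts shared a litter. Python 3.11.15, pandas 2.3.3, scipy and matplotlib were used for joins, exact tests and plots.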

Additional observations from a re-analysis of the deposited data

Results flagged for a closer look

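In a group of 4 libraries a value was picked out where the gap between the highest or lowest library and its nearest neighbour exceeded Dixon's 95% critical value for its share of the group's range, which chance gives in about 1 group in 20. Of 88 groups examined, 5 did so. *Tbx18* in wild-type replicate 1 was at 61.3 CPM against 16.5 to 23.8 CPM in the other wild-type libraries, the same library in which *Itga4*, *Tcf21*, *Upk3b* and *Upk1b* were highest. *Aldh1a2* in Tbx20EH1Mut replicate 1 was at 16.2 CPM against 3.81 to 5.74 CPM. *Itga6* in wild-type replicate 1 was at 271.5 CPM against 334 to 345 CPM. *Tln1* in wild-type replicate 2 was at 285 CPM against 183 to 194 CPM. The summed foregut epithelium markers in wild-type replicate 2 were at 52.8 CPM against 1.02 to 6.37 CPM.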

How the results depend on the processing

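*Itga4* and *Vcam1* were called lower and *Wt1* higher, and the other 4 tested genes were not called, in each of 8 alternatives on all libraries and in each of 8 fits without 1 library. Without 1 library, *Itga4* ranged from −2.91 to −2.05, *Vcam1* from −1.68 to −1.51 and *Wt1* from 1.45 to 1.81 on the log2 scale. *Tcf21* ranged from −0.41 to 0.41, *Upk3b* from −0.28 to 0.43 and *Upk1b* from −0.83 to 0.05. Leaving out wild-type replicate 1 and Tbx20EH1Mut replicate 3 together was chosen after seeing the data, because their deviations had the highest correlation (0.51). It gave −1.88, −1.64 and 1.77 for *Itga4*, *Vcam1* and *Wt1*, which stayed called, and 1 called uroplakin gene. In that fit *Tcf21* was at 0.60, *Upk3b* at 0.64 and *Upk1b* at −0.03, none of them called. Over all genes 5024 were called, 2406 higher and 2618 lower, while upper-quartile scaling called 2859 higher and 1997 lower, and 3001 to 6586 were called without 1 library. Without 1 library the called genes numbered 1 to 4 of the other epicardial genes, 0 to 1 of the uroplakins, 1 to 5 of the integrin subunits, 2 to 6 of the adaptors and 4 to 8 of the proepicardium regulators. Upper-quartile scaling called 5 other epicardial genes, 5 integrin subunits and 4 regulators. DESeq2 called 6 other epicardial genes, 1 uroplakin and 5 integrin subunits, and the fit without a filter called 1 uroplakin. The deviations of same-numbered libraries from their genotype means had correlations of −0.35, 0.38, 0.08 and 0.08, not all above 0.1, so the numbers were not taken as pairs, and a replicate block gave 3945 calls over all genes, 1 called integrin subunit instead of 3, no call for *Aldh1a1* (−2.69, adjusted p = 0.0595) or *Itga5* (−0.43, adjusted p = 0.0508), a call for *Lrrn4*, and −2.47, −1.61 and 1.62 for *Itga4*, *Vcam1* and *Wt1*. The difference in summed endothelial markers was 91.5 CPM with library size alone (exact permutation p = 0.0857, against 0.0286 with TMM) and 98.9 to 138 CPM without 1 library, and that in pharyngeal mesoderm markers was 24.5 to 30.7 CPM without 1 library, a design of 3 against 4 in which no exact p under 0.05 can be reached. For the changed counts the cause was not tested.

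*Msln* lies under what this depth resolves.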
